A study of Rattus norvegicus with 6 samples.

Results

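Messenger RNA of 10 marker genes of T cells and natural killer (NK) cells was examined in the lungs of saline-treated and bleomycin-treated Sprague–Dawley rats. The markers were taken by gene name from the table of linear transcripts, and all 10 were found among 21210 gene names, with 19 of the 70376 transcripts. The rats were 7 weeks old at the start. The 3 PF model rats had received bleomycin once into the trachea at 7 mg/kg, the 3 control rats saline, and whole lung was taken after 28 days. No genetic alteration is named for either group, and each library came from the lung of 1 rat. Bleomycin given once injures the epithelium directly, so the model stands for a lung some weeks after a single injury.

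T cells recognise antigen through a receptor that signals through the CD3 chains, encoded by Cd3d, Cd3e and Cd3g. The coreceptors divide T cells into helper cells, which carry CD4, and cytotoxic cells, which carry CD8 as a pair of chains encoded by Cd8a and Cd8b. Cytotoxic T cells and NK cells kill through granules holding perforin (Prf1), which opens the target membrane, and granzyme B (Gzmb), a protease that enters through it, and Nkg7 encodes a protein of these granules. Foxp3 is the transcription factor that defines regulatory T cells. In the rat, CD4 is also found on macrophages and CD8α on NK cells, so neither of these marks only T cells in whole lung.

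All levels are FPKM (fragments scaled by transcript length and by library total), summed over the transcripts of a gene. Between 35778600 and 41112700 reads per library were estimated from transcript coverage. The tissue label was checked against markers of lung cells. The type 2 cell gene Sftpc lay between 2410 and 4146 FPKM and the airway gene Scgb1a1 between 4065 and 7693 FPKM in the 6 libraries, while Foxj1 and Pecam1 were not found under these names. Ptprc, which encodes the leukocyte antigen CD45, was present in every library at 23.3 to 40.0 FPKM. The labels name each library as a separate sample, and 3 per group limit the precision of every comparison.

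The promoters of the CD3 chains and of 2 granule genes are shown because the CD3 chains lie side by side and form one complex, and because perforin and granzyme B are used together. Each sequence runs from 250 bases before to 50 bases after the gene's start in RefSeq (build GRCr8, given on the strand of the gene). Capitals mark the letters TGTGGT for factors of the RUNX family, AGGAAG for the ETS family, AGGTGT for T-box factors and TATAAA for the TATA box. Both strands were searched, so a match on the other strand is printed as its reverse complement. The windows are chr8:54185269-54185568 (plus strand) for Cd3d, chr8:54211721-54212020 (minus strand) for Cd3e, chr8:54183869-54184168 (minus strand) for Cd3g, chr15:34462420-34462719 (minus strand) for Gzmb, chr20:29788790-29789089 (plus strand) for Prf1, and these positions belong to GRCr8, not to the build of the deposited files.
Cd3d: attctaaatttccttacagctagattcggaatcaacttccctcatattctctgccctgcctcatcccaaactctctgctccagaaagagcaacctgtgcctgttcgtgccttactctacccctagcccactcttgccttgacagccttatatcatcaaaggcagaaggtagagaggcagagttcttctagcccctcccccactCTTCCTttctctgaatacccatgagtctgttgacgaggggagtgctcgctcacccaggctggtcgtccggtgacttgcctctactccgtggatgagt
Cd3e: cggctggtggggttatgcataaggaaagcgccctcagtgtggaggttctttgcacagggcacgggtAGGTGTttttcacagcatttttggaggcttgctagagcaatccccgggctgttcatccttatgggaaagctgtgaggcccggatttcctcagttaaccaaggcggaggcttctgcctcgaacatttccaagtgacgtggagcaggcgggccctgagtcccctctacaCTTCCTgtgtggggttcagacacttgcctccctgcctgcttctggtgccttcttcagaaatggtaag
Cd3g: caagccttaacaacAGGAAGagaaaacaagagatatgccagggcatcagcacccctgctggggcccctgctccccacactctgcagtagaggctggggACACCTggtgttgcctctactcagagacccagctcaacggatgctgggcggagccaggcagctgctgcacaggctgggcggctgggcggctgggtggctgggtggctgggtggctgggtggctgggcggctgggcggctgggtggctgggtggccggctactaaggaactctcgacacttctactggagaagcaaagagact
Gzmb: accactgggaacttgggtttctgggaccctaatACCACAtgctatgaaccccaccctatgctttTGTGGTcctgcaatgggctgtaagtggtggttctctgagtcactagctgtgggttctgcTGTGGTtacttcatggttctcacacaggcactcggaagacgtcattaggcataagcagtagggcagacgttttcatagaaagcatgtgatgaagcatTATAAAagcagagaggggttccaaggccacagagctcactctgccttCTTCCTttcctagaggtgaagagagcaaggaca
Prf1: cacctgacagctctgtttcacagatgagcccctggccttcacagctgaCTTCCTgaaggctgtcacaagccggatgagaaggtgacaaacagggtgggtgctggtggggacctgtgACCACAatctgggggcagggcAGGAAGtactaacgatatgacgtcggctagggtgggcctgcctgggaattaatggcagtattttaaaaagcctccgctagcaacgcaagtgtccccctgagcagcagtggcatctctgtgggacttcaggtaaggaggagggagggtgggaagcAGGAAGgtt

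Of the 10 markers, 8 were matched to a RefSeq promoter; Cd4 and Cd8b were not. AGGAAG was present in 6 of the 8 promoters and in 34.5% of all 33469 promoters of the same length. All 3 CD3 promoters held it 1 time, at −47 in Cd3d, −17 in Cd3e and −236 in Cd3g, counted to the leftmost base of the match. AGGTGT was present in Cd3e and Cd3g and in 13.6% of all promoters. TGTGGT was present 3 times in Gzmb, 1 time in Prf1 and 1 time in Nkg7, against 17.3% of all promoters with at least 1 match. TATAAA was found in Gzmb at −30 and in Foxp3 at −49, and in 14.2% of all promoters. The Cd8a window held none of the 4 strings. These matches describe the letters of the windows only.

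The markers differed widely in level (means over the 6 libraries). Cd4 was highest at 13.4 FPKM, followed by Prf1 at 9.13 and Nkg7 at 7.02 FPKM. Cd3g (3.97), Cd3e (3.81), Cd8a (3.64), Foxp3 (2.28) and Cd3d (1.55 FPKM) came next, and Gzmb (0.872) and Cd8b (0.793 FPKM) were lowest. Of the neighbours in this order, only Nkg7 and Cd3g, and Foxp3 and Cd3d, had ranges that did not overlap. Cd4 exceeded Prf1, and Prf1 exceeded Nkg7, in 6 of 6 libraries although their ranges overlapped. Cd4 lay above 80.9% of all genes tested and Cd8b above 25.4%. Estimated reads of a marker ran from 1226 to 2043 per library for Cd4 but from 34 to 112 for Cd8b, so the low markers carry more counting error.

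Between control and model lungs, none of the 10 markers differed beyond the spread between rats. A gene was called at an unadjusted limma p of at most 0.05 and a log2 ratio of group means of at least 1 in either direction, and 0 of the 10 markers were called, against 1.53% of the 19203 genes tested. At an unadjusted p of at most 0.05 alone, 0 of 10 passed, against 4.90% of all genes. At an adjusted p of at most 0.05, 0 of 10 passed, and 2 genes passed in the whole table. The groups did not overlap for 1 of 10 markers, Foxp3, against 10.7% of all genes. The log2 fold changes given below are model minus control on the log2(FPKM + 1) scale, with the standard error and the 95% interval of the fit. In whole lung, fewer cells of a type and less RNA per cell cannot be told apart.

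The CD3 chains lie within one stretch of chromosome 8 in the coordinates of the files, whose genome build is not given in the sources used here. Cd3g (chr8:49274566-49280901, minus strand) is followed by Cd3d (chr8:49282460-49287110, plus strand) after 1559 bases and by Cd3e (chr8:49297608-49308806, minus strand) after a further 10498 bases. Cd3d encodes the δ chain and was the steadiest of the markers, at 1.41, 1.69 and 1.56 FPKM in control 1, 2 and 3 and at 1.44, 1.52 and 1.68 FPKM in model 1, 2 and 3. The groups overlapped, and the fold change was −0.004 ± 0.11 (SE; interval −0.27 to 0.26; limma adjusted p = 1.0). Cd3e, the ε chain needed for assembly of the receptor, was at 2.70, 4.60 and 4.58 FPKM in the controls and 3.23, 3.06 and 4.71 FPKM in the models. Control 1 was lowest and model 3 highest, and the fold change was −0.08 ± 0.22 (interval −0.61 to 0.46; adjusted p = 0.985). Cd3g, the γ chain, was at 1.51, 5.05 and 5.06 FPKM in the controls and 3.804, 3.65 and 4.75 FPKM in the models. All 3 models lay between control 1 and the other controls. The fold change was 0.16 ± 0.36 (interval −0.70 to 1.01; limma adjusted p = 0.974). This was the widest interval of the 3 chains, with an SD of 2.05 FPKM in the controls and 0.60 FPKM in the models.

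The coreceptor genes also overlapped between the groups. Cd4 (chr4:157381877-157408176, minus strand) was at 9.97, 15.5 and 15.6 FPKM in the controls and 12.2, 11.9 and 15.3 FPKM in the models. Again control 1 was lowest, and the fold change was −0.04 ± 0.19 (interval −0.50 to 0.42; limma adjusted p = 0.994). Cd8b and Cd8a share another stretch of the same chromosome, 37092 bases apart on the plus strand. Cd8a (chr4:99239115-99243351), the chain that can also pair with itself, was at 2.51, 4.88 and 5.01 FPKM in the controls and 3.24, 3.02 and 3.17 FPKM in the models. Control 2 and 3 lay above all 3 models and control 1 below them. The fold change was −0.27 ± 0.23 (interval −0.81 to 0.27; unadjusted p = 0.275, adjusted p = 0.934). Without control 1 it was −0.52 (limma unadjusted p = 0.0081, adjusted p = 0.891), and the log2 ratio of means was −0.65, still short of the ratio a call required. Cd8b (chr4:99185885-99202023), found on cells that carry the CD8 αβ pair, was at 0.495, 0.687 and 1.56 FPKM in the controls and 0.562, 0.695 and 0.762 FPKM in the models. Control 3 alone stood above 0.762 FPKM, and the fold change was −0.16 ± 0.20 (adjusted p = 0.949).

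**Figure D1:**
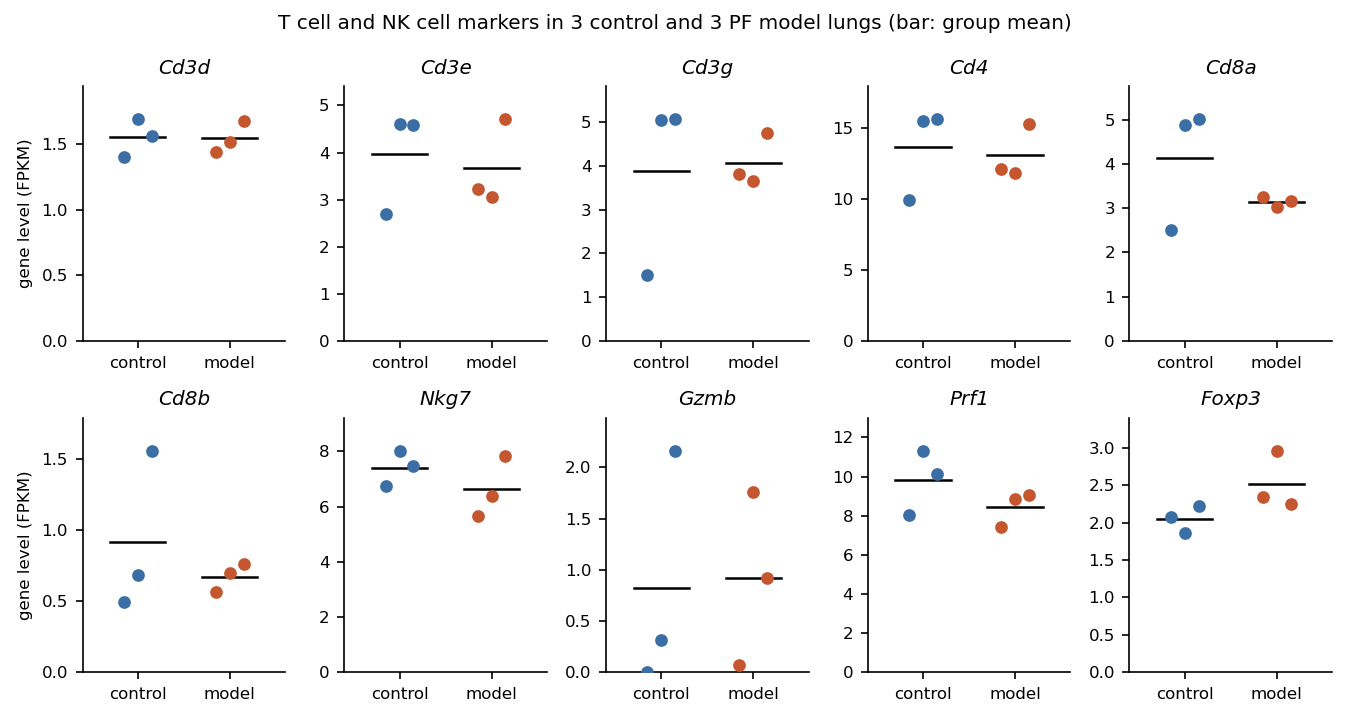
Gene level in FPKM (y axis, from 0, own scale per gene) of each marker in the 3 control (blue) and 3 model (orange) lungs. Points are rats in the order of their numbers, and bars are group means. Control 1 is lowest in 7 panels, and only the Foxp3 groups do not overlap.

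Of the granule genes, Nkg7 (chr1:98492828-98493978, minus strand) was at 6.74, 8.02 and 7.47 FPKM in the controls and 5.66, 6.39 and 7.82 FPKM in the models. Model 1 and model 2 were below every control, but model 3 was within their range. The fold change was −0.15 ± 0.14 (interval −0.47 to 0.18; limma adjusted p = 0.934). Prf1 (chr20:30915073-30921382, plus strand) was at 8.02, 11.3 and 10.1 FPKM in the controls and 7.42, 8.86 and 9.08 FPKM in the models. Control 1 fell among the models, and the fold change was −0.19 ± 0.14 (interval −0.53 to 0.16; adjusted p = 0.934). Gzmb (chr15:36327721-36472346, minus strand) varied more between rats than any other marker. It was listed at 0 in control 1, and at 0.316 and 2.16 FPKM in control 2 and 3, against 0.0701, 1.76 and 0.919 FPKM in the models. Those levels rest on an estimated 0, 14 and 109 reads in the controls and 3, 80 and 44 reads in the models. The interval of its fold change, 0.15 ± 0.51, ran from −1.07 to 1.37, so a change past 1 in either direction lies within it. The table also lists the related genes Gzmbl1, Gzmbl2 and Gzmbl3, and how reads were divided between them is not given in the sources used here, so the Gzmb level is uncertain.

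Foxp3 (chrX:15753175-15768522, minus strand) was the only marker whose groups were apart. It was at 2.07, 1.86 and 2.22 FPKM in the controls and 2.34, 2.96 and 2.25 FPKM in the models. The gap between control 3 and model 3 was small beside the spread within the models, and the fold change was 0.20 ± 0.13 (interval −0.12 to 0.52; unadjusted p = 0.177, limma adjusted p = 0.934). The difference came with the single-exon transcript described below, and with annotated transcripts alone the Foxp3 fold change was −0.07.

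**Figure D2:**
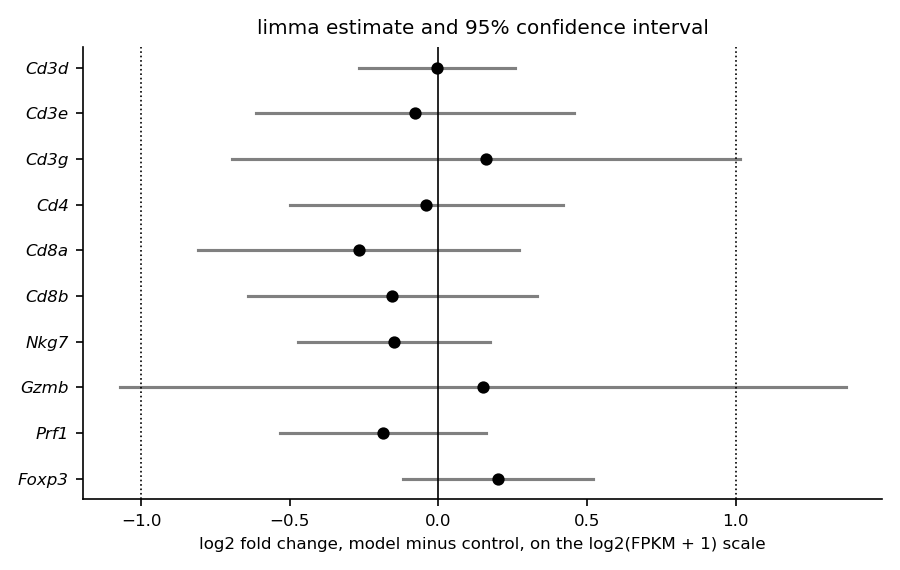
limma log2 fold change of each marker (point; x axis, model minus control on the log2(FPKM + 1) scale) with its 95% confidence interval (line). Dotted lines mark −1 and 1. All 10 intervals include 0, and those of Gzmb and Cd3g are the widest, from −1.07 to 1.37 and from −0.70 to 1.01.

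Rats of the same group differed widely. Control 1 was the lowest of the 6 libraries for 7 of the 10 markers: Cd3d, Cd3e, Cd3g, Cd4, Cd8a, Cd8b and Gzmb. Summed over the 3 CD3 chains it held 5.63 FPKM, against 11.3 and 11.2 FPKM in control 2 and 3 and 8.48, 8.23 and 11.1 FPKM in the models. Over the 7 T cell markers the sums were 20.7, 34.3 and 35.6 FPKM in the controls and 26.8, 26.8 and 32.6 FPKM in the models. Both sums in the models therefore lay inside the range of the controls. The sum of Nkg7, Gzmb and Prf1 was lowest in model 1, at 13.1 FPKM, followed by control 1 at 14.8 FPKM, and the other libraries held between 17.0 and 19.7 FPKM.

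Markers of other leukocytes moved with this pattern in part. The 5 B cell markers (Ms4a1, Cd79al, Cd79b, Cd22 and Pax5) summed to 13.9, 23.2 and 22.7 FPKM in the controls and 17.5, 20.5 and 25.6 FPKM in the models, with control 1 again lowest. Of the single B cell genes, Pax5 and Cd79b were lowest in control 1, Ms4a1 and Cd22 in model 1 and Cd79al in control 2. None of these 5 was called, and the groups of Cd79al overlapped, at 1.31, 0 and 4.36 FPKM in the controls and 3.78, 5.99 and 4.70 FPKM in the models. Summed over 7 macrophage markers, the level was 54.9 to 73.9 FPKM in the controls and 53.1 to 78.0 FPKM in the models, with 0 of 7 called. That sum follows Cd68, which lay at 1.30 and 1.21 FPKM in control 3 and model 2 and at 20.7 to 22.8 FPKM in the other 4 libraries. In the same 2 libraries the assembled transcript MSTRG.5628.1, which is listed under the neighbouring gene Mpdu1 and spans Cd68, was at 10.1 and 9.35 FPKM, against 1.70 to 3.99 FPKM elsewhere, and how reads were divided between the 2 transcripts was not tested. Without Cd68 the macrophage sum was 50.7 to 53.6 FPKM in the controls and 51.9 to 55.2 FPKM in the models. Csf1r, required by macrophages, stayed between 24.1 and 30.4 FPKM, above Cd4 in every library. Levels of different genes do not show which cells make Cd4. The part of macrophages in the Cd4 level, and of leukocyte number in the low values of control 1, was not tested.

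**Figure D3:**
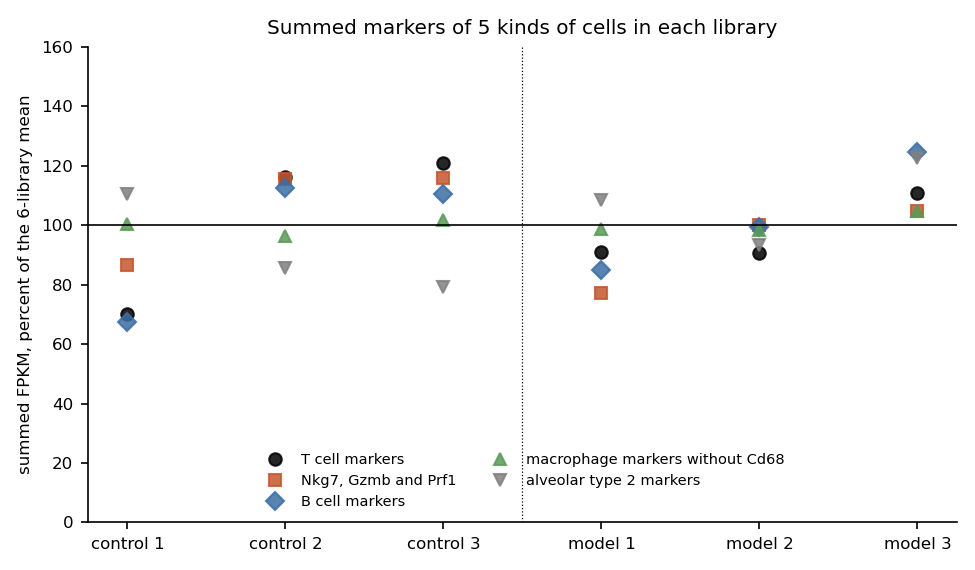
Summed FPKM of 5 marker lists in each library, as percent of the mean over the 6 libraries (y axis, from 0). T cell and B cell markers are lowest in control 1, at 70.2% and 67.4%, where macrophage markers (without Cd68) and alveolar type 2 markers are at 100.3% and 110.4%.

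Ratios within a library do not depend on its total and were compared with exact permutation tests, for which 3 rats against 3 allow no two-sided p below 0.1. The ratio of Cd4 to Cd8a was 3.97, 3.17 and 3.13 in the controls and 3.75, 3.93 and 4.84 in the models. The groups overlapped through control 1, and the log2 ratio was 0.29 higher in the models (exact permutation p = 0.3, adjusted over 4 ratios 0.8). The ratio of Foxp3 to Cd4 was 0.208, 0.120 and 0.142 in the controls and 0.193, 0.249 and 0.147 in the models, a log2 difference of 0.33 (exact permutation p = 0.4, adjusted 0.8). That difference was 0.14 without model 2, 0.16 without control 2, 0.53 without model 3, 0.56 without control 1 and 0.13 with sums weighted by transcript length. Neither the ratio of Cd8b to Cd8a (difference 0.05, exact permutation p = 1) nor that of Nkg7 to Cd3e (difference −0.08, exact permutation p = 0.9) passed the test. The ratio of Gzmb to Prf1 was not tested because Gzmb was listed at 0 in control 1.

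At transcript level, 18 of the 19 transcripts of the markers were above 0 in at least 3 libraries and were tested. None of the 18 was called, against 2.98% of 64867 transcripts, and 2 did not overlap between the groups, against 10.4%. The 7 genes with more than 1 transcript differed in how steady the division was, and the isoforms of a gene share reads, so such divisions are estimates. Cd4 was divided most evenly over the libraries. Its assembled transcript MSTRG.26742.1, of 6 exons, held 60.1% to 69.7% of the gene in every library, and the annotated transcript ENSRNOT00000021915, of 10 exons, held the rest.

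Prf1 had a steady sum and an unsteady division. The assembled transcript MSTRG.21933.1 held 78.3%, 95.007% and 48.9% of Prf1 in the controls and 24.3%, 95.4% and 7.7% in the models. The annotated transcript ENSRNOT00000000681 was listed at 0 in control 1, control 2 and model 2, and held 12.6% in control 3 and 64.7% and 32.9% in model 1 and 3. The libraries thus divided across the groups, with model 2 like control 2. The fold change was −1.17 ± 0.67 for MSTRG.21933.1 (limma unadjusted p = 0.133, adjusted p = 0.945) and 1.12 ± 0.73 for ENSRNOT00000000681 (unadjusted p = 0.181, adjusted p = 0.945). Without model 2 both were called, at −1.87 (limma unadjusted p = 0.0053, adjusted p = 0.623) and 1.87 (unadjusted p = 0.011, adjusted p = 0.791), in opposite directions.

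Other genes were also divided differently from library to library. Cd8a was at 1.12, 3.79 and 4.11 FPKM in the controls and 1.36, 1.13 and 2.39 FPKM in the models for the assembled transcript MSTRG.25972.1. The low total of Cd8a in control 1 thus came with a low MSTRG.25972.1, and without control 1 this transcript was called lower in the models, at −0.94 (limma unadjusted p = 0.015, adjusted p = 0.818). The annotated Cd8a transcript ENSRNOT00000009515 was at 0.776 to 1.88 FPKM, and its groups overlapped. For Cd3g, the annotated ENSRNOT00000021390 was listed at 0 in control 1 and was at 0.929 FPKM in model 1, against 2.91 to 3.39 FPKM in the other 4 libraries. The transcript MSTRG.34626.1 accounted for all of Cd3g in control 1 at 1.51 FPKM. For Cd3e, ENSRNOT00000047291, of 8 exons, held 51.1% of the gene in model 2 and between 5.4% and 9.6% elsewhere, the rest belonging to ENSRNOT00000091190, of 4 exons. Gzmb came from ENSRNOT00000059660 in 4 of the 5 libraries that had it, and in model 1, at an estimated 3 reads, ENSRNOT00000032601 held 58.7%.

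Foxp3 had 3 transcripts, and these did not move alike. MSTRG.37988.4, a single-exon transcript that overlaps an exon and part of an intron by its class code, was at 1.12, 1.11 and 1.10 FPKM in the controls and 1.52, 1.996 and 1.52 FPKM in the models. All 3 models were above all 3 controls, with a fold change of 0.34 ± 0.15 (unadjusted p = 0.063, limma adjusted p = 0.945). The annotated ENSRNOT00000015641, of 11 exons, was at 0.915, 0.722 and 1.06 FPKM in the controls and 0.827, 0.937 and 0.730 FPKM in the models, which overlapped. ENSRNOT00000077391 was at 0.061 FPKM or less in every library, and its groups also did not overlap, with the models lower. Reads of this class of transcript can come from unspliced RNA, and the source of MSTRG.37988.4 was not tested.

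**Figure D4:**
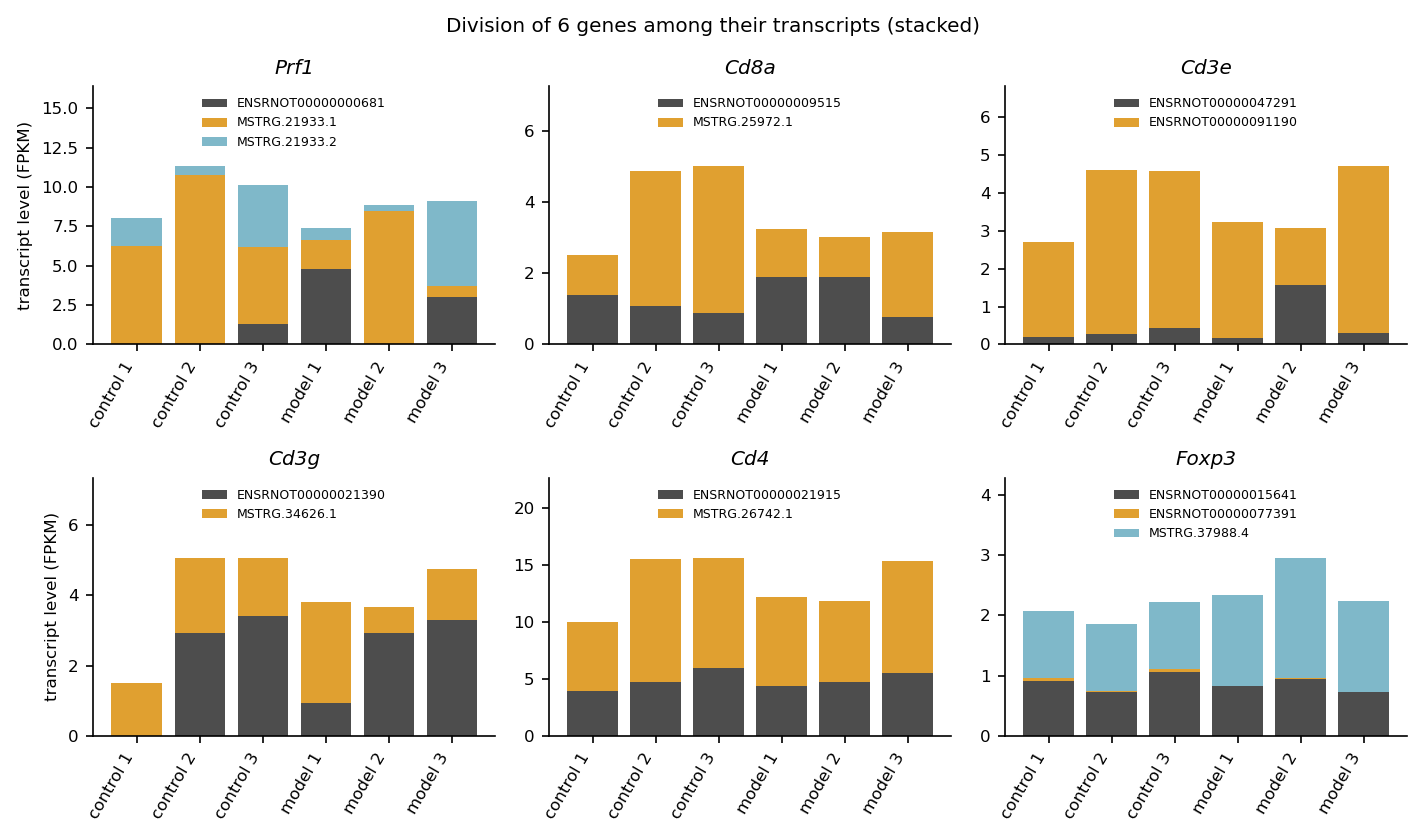
Stacked transcript FPKM (y axis, from 0, own scale per gene) in each library for 6 markers with more than 1 transcript and over 1 FPKM in every library. Bar height is the gene level, colours are transcripts, and the division of Prf1 runs from 95.4% for MSTRG.21933.1 in model 2 to 7.7% in model 3 while its height stays between 7.42 and 11.3 FPKM.

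Other genes of T cells and NK cells were described through 4 lists. Of 69 such genes tested, 0 were called higher and 2 lower, Xcl1 and Tnfrsf18, and 7 reached an unadjusted p of at most 0.05, none of them at an adjusted p of at most 0.05. That is 2.90% called, beside 1.53% of all genes, and 10.1% at an unadjusted p of at most 0.05, beside 4.90%. The groups were apart for 8 of 69, or 11.6%, beside 10.7% of all genes. The fold change was below 0 for 50 of 69, with a median of −0.12, beside 52.3% and a median of −0.01 over all genes tested. These genes are expressed in part by the same cells, so they are not independent of each other.

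The 19 genes of the T cell receptor and its signalling had 0 called and 0 at an unadjusted p of at most 0.05, 14 below 0 and a median of −0.06. Cd247, the ζ chain of the receptor, was at 4.20, 6.75 and 6.13 FPKM in the controls and 5.77, 6.85 and 9.87 FPKM in the models (limma unadjusted p = 0.186, adjusted p = 0.934). Lcp2, the adaptor SLP-76, lay between 4.12 and 5.93 FPKM, and Fyb1, another adaptor, between 8.49 and 14.1 FPKM, with overlapping groups. For this list too control 1 had the lowest sum, at 61.5 FPKM, against 74.4 to 101 FPKM in the other libraries. The naive and memory list was also lowest in control 1, at 128 FPKM. The cytotoxic and NK list and the helper and regulatory list were lowest in model 1, at 64.5 and 36.1 FPKM. In control 1 these 2 sums were 66.9 and 41.1 FPKM.

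Of the 23 tested genes of cytotoxic and NK cells, 21 were below 0, the median was −0.17, 4 reached an unadjusted p of at most 0.05 and 1 was called. Over all genes 52.3% were below 0. These signs were counted on FPKM as deposited, and rescaling to TPM moved the median over all genes from −0.006 to 0.049. Other leukocyte markers were mixed. Below 0 were 3 of 4 neutrophil markers tested (median −0.18) and 3 of 5 B cell markers (median −0.07). So were 4 of 7 macrophage markers (median −0.006) and 1 of 4 plasma cell markers (median 0.25). Ptprc was at 27.4, 36.3 and 40.0 FPKM in the controls and 30.04, 29.7 and 23.3 FPKM in the models (fold change −0.30; limma unadjusted p = 0.115, adjusted p = 0.934). Whether the cytotoxic and NK genes differ from other leukocyte genes in this was not tested. Faslg, the ligand by which killer cells trigger death through Fas, was at 2.51, 3.67 and 2.99 FPKM in the controls and 1.495, 1.74 and 2.03 FPKM in the models. The groups were apart, with a fold change of −0.55 ± 0.16 (unadjusted p = 0.011, limma adjusted p = 0.934), short of the ratio required. Tbx21, which encodes the transcription factor T-bet, was at 7.19, 8.59 and 9.70 FPKM in the controls and 5.95, 6.66 and 6.82 FPKM in the models, also apart (fold change −0.34 ± 0.13; limma unadjusted p = 0.035, adjusted p = 0.934). Klrk1, the activating receptor NKG2D, was at 3.54, 6.88 and 5.70 FPKM in the controls and 3.14, 3.64 and 2.56 FPKM in the models (limma unadjusted p = 0.037, adjusted p = 0.934), and control 1 lay below model 2. Xcl1, a chemokine made by these cells, was at 0.277, 0.380 and 0.903 FPKM in the controls and 0.074, 0.230 and 0.118 FPKM in the models, on an estimated 2 to 22 reads. It was called lower (limma unadjusted p = 0.041, adjusted p = 0.934) and lost the call without model 1, model 2 or model 3, where the unadjusted p was 0.108, 0.0504 and 0.094, and without trend or with annotated transcripts only, where it was 0.053 and 0.0501. With each library scaled to the same summed FPKM (TPM), the limma unadjusted p was 0.132 for Tbx21 and stayed below 0.05 for Faslg, Klrk1 and Xcl1. With annotated transcripts only, the limma unadjusted p was 0.126 for Faslg, 0.643 for Tbx21 and 0.460 for Klrk1, whose fold change was then 0.28. When 1 library was left out, the limma unadjusted p reached 0.113 for Klrk1 and 0.108 for Tbx21, and at most 0.038 for Faslg. These 4 genes were named by p from a list with 21 of 23 below 0, so their common sign is no separate result. Of the granule markers, Prf1 and Nkg7 were below 0, and Gzmb was above it at 0.15, with an interval from −1.07 to 1.37. With annotated transcripts only, the fold change of Prf1 was 1.12, so these markers had no common sign.

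Among 16 tested genes of helper and regulatory T cells, Tnfrsf18 was called lower and no other gene reached an unadjusted p of at most 0.05. Tnfrsf18 encodes the receptor GITR, abundant on regulatory T cells, and was at 2.81, 2.22 and 0.888 FPKM in the controls and 0.863, 0.839 and 0.766 FPKM in the models. Control 3 was close to the models, and the fold change was −0.65 ± 0.26 (limma unadjusted p = 0.044, adjusted p = 0.934). The call held without control 3 (limma unadjusted p = 0.00057, adjusted p = 0.720) and was lost when any 1 of the other 5 libraries was left out, with p between 0.082 and 0.119. It was also lost with sums weighted by transcript length (−0.23; limma unadjusted p = 0.063, adjusted p = 0.928) and with annotated transcripts only (−0.11; unadjusted p = 0.335, adjusted p = 0.972). The fold change of Foxp3 was 0.20 summed over all its transcripts and −0.07 with annotated transcripts only. Bcl6, the factor of follicular helper cells, lay between 9.20 and 12.6 FPKM with overlapping groups, and Ccr8 was at 0.075 FPKM or less in every library.

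In the list of naive and memory T cells, 0 of 11 genes were called and 2 reached an unadjusted p of at most 0.05. Klf2, a factor that keeps T cells quiescent and is also strong in endothelium, was at 20.1, 22.2 and 24.6 FPKM in the controls and 19.0, 19.0 and 17.5 FPKM in the models (fold change −0.25 ± 0.09; limma unadjusted p = 0.033, adjusted p = 0.934). Cd44, an adhesion receptor of activated T cells and of many other cells, was at 26.1, 25.8 and 25.6 FPKM in the controls and 32.5, 28.8 and 28.3 FPKM in the models (0.20 ± 0.08; limma unadjusted p = 0.038, adjusted p = 0.934). Both pairs of groups were apart. S1pr1, the receptor by which lymphocytes leave tissue and also an endothelial gene, lay between 36.9 and 47.9 FPKM and overlapped.

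**Figure D5:**
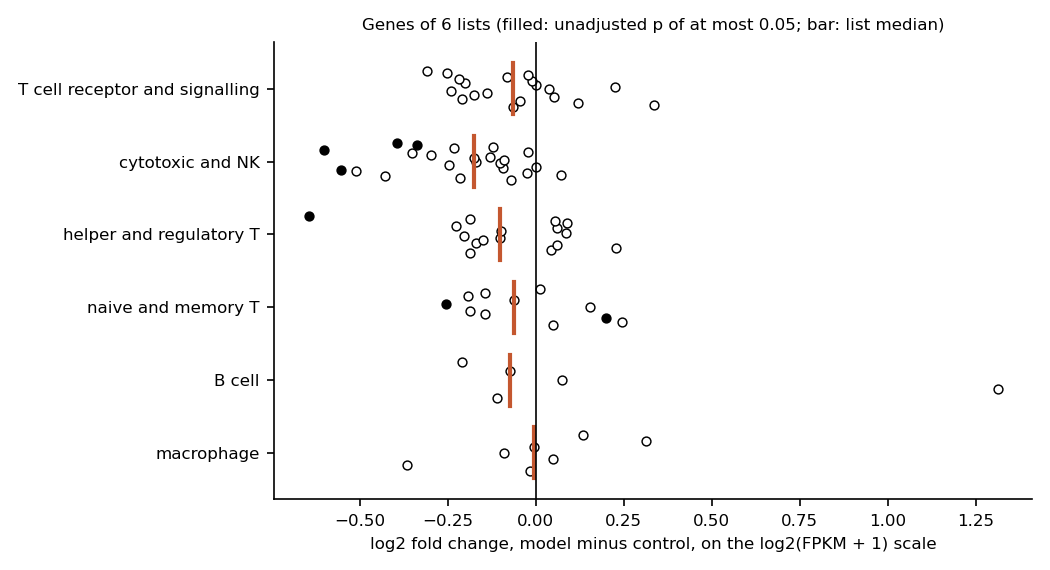
limma log2 fold change (x axis, model minus control on the log2(FPKM + 1) scale) of each tested gene of 4 lists of T cell and NK cell genes and of the B cell and macrophage lists. Filled points have an unadjusted p of at most 0.05, and vertical bars are list medians. In the cytotoxic and NK list 21 of 23 points are below 0, and the point at 1.31 in the B cell list is Cd79al.

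Markers of other lung cells had 1 call among 36 genes tested, or 2.78%, beside 1.53% of all genes. Tnfrsf17, a receptor of plasma cells, was at 0.194, 0.124 and 0.145 FPKM in the controls and 0.298, 0.473 and 0.530 FPKM in the models, on an estimated 5 to 24 reads (unadjusted p = 0.0064, limma adjusted p = 0.934). The collagen gene Col3a1, made by fibroblasts, was at 174, 178 and 154 FPKM in the controls and 189, 204 and 233 FPKM in the models (fold change 0.30 ± 0.11; limma unadjusted p = 0.036, adjusted p = 0.934). Without control 3 its limma unadjusted p was 0.110. The list of 4 fibroblast markers had 3 above 0, 1 below 0 and 1 with groups apart, which was Col3a1. Of the T cell and NK cell markers, none but Foxp3 was higher in all 3 models than in all 3 controls.

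The genes whose levels followed the summed CD3 chains most closely over the 6 libraries, of 13882 genes with a mean of at least 1 FPKM, were Mkl1 (Pearson r = 0.994), Apba1 (0.991), Acer2 (0.985), Dhh (0.978) and AABR07070043.2 (0.974). None of these 5 genes is in the lists of T cell genes used here. The 6 points share the low control 1, and with so many genes searched close matches are given as a description only. Mkl1, for instance, was at 15.7 FPKM in control 1 and at 17.8 to 20.6 FPKM elsewhere.

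None of the 5216 circular RNAs came from the 10 markers. With 2037 to 2964 back-splice reads per library, a count of 0 would allow a share of up to 0.101% to 0.147% of those reads (3 counts of the total, counting error only). Only circular RNAs that the authors called are listed, so absence is not an observed count of 0, and that share is not a bound. Circular RNA of the markers was thus not among those called at this depth.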

How the data were processed

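Whole-lung RNA of 3 control and 3 PF model rats, depleted of rRNA and made into stranded libraries, was sequenced as paired reads of 150 bases. The authors trimmed reads with Cutadapt, mapped them and merged the StringTie assemblies of all libraries. The authors used StringTie with Ballgown to obtain FPKM, deposited for each transcript. The methods name Bowtie2 and Tophat2 as aligners and the submitters' processing notes HISAT2. The genome build is not given in the sources used here. The authors also deposited per-base coverage, a signal from which reads were estimated as coverage times length over 150, and raw counts of back-splice reads of circRNAs called with CIRCexplorer.

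Gene FPKM is the plain sum over transcripts of a gene name with an annotated transcript. Genes above 0 in at least 3 of 6 samples were compared with limma 3.58.1 (trend, R 4.3.3) on log2(FPKM + 1), with Benjamini-Hochberg adjustment over all genes tested. This scale understates changes of low genes. Ratios between markers were compared with two-sided exact permutation tests. The limma test was checked on simulated data, with large changes placed on genes above a set level. That check does not give the power for changes as small as those of the markers. Faslg and Cd79al are the files' names for Fasl and Cd79a. Alternatives were other pseudocounts, filters, scalings, sums, a fit without trend, a replicate block and leaving out each library. The markers, lists and tests were chosen with earlier results of these data known. Named were all markers, and of each list the called genes or, where fewer than 3 were called, the 3 of smallest p, and the 5 genes most like the CD3 sum. Of the lists of other lung cells, only genes beside a marker result are named; Ptprc, Csf1r, Cd68 and the markers used to check the tissue were chosen after their values were seen. Python 3.11.15 with pandas 2.3.3, scipy 1.17.1 and matplotlib 3.10.9 was used for tables and figures. One gene of the B cell list is not reported here, and its sum and counts were computed without it.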

Additional observations from a re-analysis of the deposited data

How the results depend on the processing

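Over 158 alternative fits of the 10 markers at gene level, 0 were called and 1 had an unadjusted p of at most 0.05, Cd8a without control 1. The sign changed in 21 of these fits. With FPKM rescaled to TPM, the fold change was 0.058 for Cd3d (gene and ENSRNOT00000021488), 0.040 for Cd4 and 0.011 for MSTRG.26742.1. With upper quartile scaling, it was 0.011 for Cd3d and 0.024 for ENSRNOT00000021488. With annotated transcripts only, it was 0.014 for Cd4, 0.21 for Cd8a, 1.12 for Prf1, −0.074 for Foxp3, 1.02 for Fyb1 (then called higher; limma unadjusted p = 0.043, adjusted p = 0.972), 0.28 for Klrk1 and 0.026 for Klf2, because assembled transcripts are left out there.

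Leaving out 1 library at a time moved Cd3d between −0.046 and 0.034 (ENSRNOT00000021488 the same), Cd3e between −0.28 and 0.020, Cd3g between −0.26 and 0.37, Cd4 between −0.24 and 0.061, Cd8b between −0.31 and 0.073 (ENSRNOT00000009392 the same) and Gzmb between −0.19 and 0.64. The fold change of Gzmb depended more on the pseudocount, at 0.15 with 1, 0.59 with 0.1 and 1.41 with 0.01. The ranges were −0.12 to 0.010 for ENSRNOT00000015641, −0.38 to 0.69 for ENSRNOT00000021390, −0.10 to 0.14 for ENSRNOT00000021915, −0.078 to 0.49 for ENSRNOT00000047291, −0.21 to 0.62 for ENSRNOT00000059660, −0.52 to 0.034 for ENSRNOT00000091190, −0.79 to 0.30 for MSTRG.21933.2, −0.29 to 0.081 for MSTRG.26742.1 and −0.42 to 0.16 for MSTRG.34626.1. The log2 ratio of Cd8b to Cd8a ranged from −0.22 to 0.35 and that of Nkg7 to Cd3e from −0.19 to 0.11.

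The number of marker transcripts called ranged from 0 to 2 without 1 library and was 1 with the replicate block (MSTRG.21933.1, limma unadjusted p = 0.030, adjusted p = 0.939). Same-numbered rats deviated together only weakly (r = 0.072, 0.033 and −0.066). The labels name no pairs, and a weak correlation cannot show that rats were unmatched. With the replicate block 311 genes were called and 0 markers. The other T cell and NK cell genes had 1 call at a mean FPKM of at least 1 and 1 without trend, and 0 to 4 without 1 library, the 4 being Eomes, Klrk1, Tigit and Xcl1 without control 1. Markers of other lung cells had 0 calls at a mean FPKM of at least 1, 1 or 2 without 1 library, and 1 without Cd68, an alternative chosen after seeing the data.

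Of all genes, 293 were called, but 80 at a mean FPKM of at least 1 and 519 with annotated transcripts only; of transcripts, 1934 and 1066 at a mean FPKM of at least 1. After rescaling to TPM, 194 of 332 calls were higher in the models (58.4%), against 132 of 293 (45.1%). With Gzmb at an estimated 0 to 109 reads, the interval of its fold change reaches past 1 log2 unit in both directions.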
